A study of Mus musculus with 23 samples.

Results

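Extra-embryonic tissue (ExE) was set against epiblast (E) within embryos homozygous for a gene trap of Tet1 (Tet1gt/gt), across all genes. The members are the libraries that the labels give as homozygous, 3 of ExE and 4 of E, which makes 7 of the 23 libraries of the series. The other 16 libraries are 4 of heterozygous ExE (Tet1gt/wt), 4 of heterozygous E, 4 of wild-type (wt) ExE and 4 of wt E. They were used to ask whether the tissue difference differed by genotype and, in the shared fit, to estimate the spread between pools. All mouse embryos were at stage E6.25, shortly after implantation, and both homozygous groups carry the same trap allele on both copies. Each library is a pool of tissue lysates from at least 6 embryos of 2 to 3 litters, put together once genotypes had been read, so no library is a single embryo. A number shared between an ExE and an E pool (1, 3 and 4 here) stands for shared litters, and E pool 2 has no ExE partner, as an ExE pool was lost. The site of the trap within Tet1, the strain and the sex of the embryos are not stated by the labels.

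Just after implantation the epiblast is the pluripotent tissue from which the embryo proper forms, held in its state by the transcription factors POU5F1 (OCT4), NANOG and SOX2 and by Nodal signalling. The adjoining extra-embryonic ectoderm and ectoplacental cone descend from the trophectoderm and build the placenta. FGF4 from the epiblast sustains trophoblast stem cells through the receptor FGFR2, and BMP4 passes in the other direction. TET1 oxidises methylated cytosine in DNA, the DNA methyltransferases DNMT3A and DNMT3B add the mark, and in the mouse the epiblast genome becomes far more methylated at this time than that of the extra-embryonic ectoderm.

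The deposited values are counts of RNA sequencing reads per gene. Total counts were 7543022, 4912215 and 7774149 in ExE pools 1, 3 and 4 and 8832086, 9427522, 5967254 and 5810296 in E pools 1, 2, 3 and 4. Levels are given as CPM, depth-scaled counts after adjustment of the libraries by the TMM method, and are not divided by transcript length, so they compare libraries for one gene and not genes with each other. Differences are log2 fold changes of ExE over E with their standard error, positive where ExE was higher. A gene is called when its adjusted p in edgeR's quasi-likelihood test was under 0.05 over all 13595 genes tested. Where a gene had a count of 0, up to 3 counts are allowed, equal to 0.312 to 0.684 CPM, and such floors cover counting error only. Pool 3 stood apart in both tissues. Its deviation from the other libraries had a slope on log2 transcript length of -0.37 in ExE and -0.35 in E, and of 0.70 and 0.71 per 10% of GC content, where the other 5 homozygous libraries had -0.01 to 0.08 for length and -0.27 to -0.02 for GC. Heterozygous E pool 4 had slopes of -0.39 and 0.65 and enters the heterozygous comparisons below. These are the 3 libraries with a length and GC slope.

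The tissue labels held against defining markers, with some signal of each tissue in the other. The summed level of 8 extra-embryonic ectoderm markers (Cdx2, Elf5, Eomes, Esrrb, Tfap2c, Bmp4, Fgfr2 and Gata3) was 2054, 1569 and 1725 CPM in ExE pools 1, 3 and 4 and 292, 109, 334 and 141 CPM in E pools 1, 2, 3 and 4. E pools thus held between 6.12% and 18.7% of the ExE mean. The summed level of 8 epiblast markers (Pou5f1, Nanog, Sox2, Utf1, Otx2, Fgf5, Fgf4 and Tdgf1) was 497, 1524 and 907 CPM in the ExE pools, against 2327, 2663, 3009 and 2331 CPM in the E pools. ExE pool 3 stood at 59.0% of the E mean, pool 4 at 35.1% and pool 1 at 19.2%. Some of these epiblast markers, Sox2 and Utf1 among them, are also expressed by trophoblast stem cells. In pooled tissue, fewer cells of a type and less RNA per cell cannot be told apart.

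Reads counted to Tet1, the target of the trap, remained measurable in both homozygous tissues and were lower in ExE. The counts are per gene and the trap site is not stated, so intact and trapped transcript cannot be told apart. The GRCm38 position of Tet1 is chr10:62804570-62908996, minus strand. Its level was 21.5, 24.2 and 37.8 CPM in ExE pools 1, 3 and 4, against 69.2, 87.4, 55.3 and 113 CPM in E pools 1, 2, 3 and 4. Every ExE pool was below every E pool. The difference in mean log2 CPM was -1.53 (two-sided exact permutation test, p = 0.0286, the smallest value that 35 splits of 3 against 4 allow), and edgeR gave -1.54 ± 0.29 (SE, adjusted p = 0.0011). The permutation test treated the 7 libraries as independent, although pools 1, 3 and 4 share litters between the tissues. Leaving out 1 library gave -1.77 to -1.36, at a size where the exact test cannot reach 0.05. Tet1 was also lower in ExE than in E in the other genotypes, at 48.1 ± 7.50 against 124 ± 38.6 CPM in heterozygous and 96.0 ± 13.7 against 173 ± 31.7 CPM in wt embryos (SD, n = 4 each). The homozygous minus the wt tissue difference of Tet1 was -0.69 ± 0.37 (edgeR, unadjusted p = 0.076).

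The de novo methyltransferase genes Dnmt3a and Dnmt3b were lower in ExE and the cofactor gene Dnmt3l was higher. The maintenance genes did not pass the test. Dnmt3b, which encodes the main de novo methyltransferase of the early embryo, lies on chromosome 2 from 153649450 to 153687730. It was at 1424, 1696 and 1913 CPM in ExE, against 5636, 6216, 4575 and 6091 CPM in E (-1.75 ± 0.21, edgeR adjusted p = 2.84e-05). Dnmt3a (chromosome 12, 3806007 to 3914443), the second de novo enzyme, was at 61.0, 166 and 145 CPM in ExE and 711, 795, 684 and 803 CPM in E (-2.60 ± 0.44, adjusted p = 0.000506). The tissues did not overlap for either gene. Dnmt3l (chromosome 10, 78041947 to 78063622), a cofactor of these enzymes with no catalytic activity of its own, went the other way. It was at 105, 161 and 86.9 CPM in ExE and 13.1, 11.5, 16.8 and 7.30 CPM in E, a log2 fold change of 3.27 ± 0.42 (adjusted p = 5.88e-05), again with no overlap. Dnmt3a, Dnmt3b and Dnmt3l stayed called with the same sign under each of the 19 alternative settings, and Tet1 lost its call in 1 of them, the test against a 2-fold difference (adjusted p = 0.123).

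The maintenance methyltransferase gene Dnmt1 averaged 299.7 ± 72.0 CPM in ExE and 319 ± 63.2 CPM in E, and its partner Uhrf1 363 ± 1.16 CPM in ExE and 348 ± 45.0 CPM in E (SD, n = 3 and 4). Their log2 fold changes were -0.09 ± 0.19 and 0.06 ± 0.13. The remaining TET genes did not pass the test either. Tet2 was at 9.99, 6.38 and 11.3 CPM in ExE and 3.36, 1.25, 7.08 and 5.26 CPM in E (1.14 ± 0.80, adjusted p = 0.358), and Tet3 was at 35.8 ± 6.48 CPM in ExE and 39.3 ± 5.62 CPM in E (-0.14 ± 0.29). Pools overlapped for all 4 of these genes. Of the 21 tested enzymes and readers of DNA methylation, 1 was higher and 4 were lower, with a median log2 fold change of -0.09, and 2 were higher without E pool 3 or ExE pool 3. In total 23.8% of this list was called, against 16.8% of all genes tested.

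**Figure D1:**
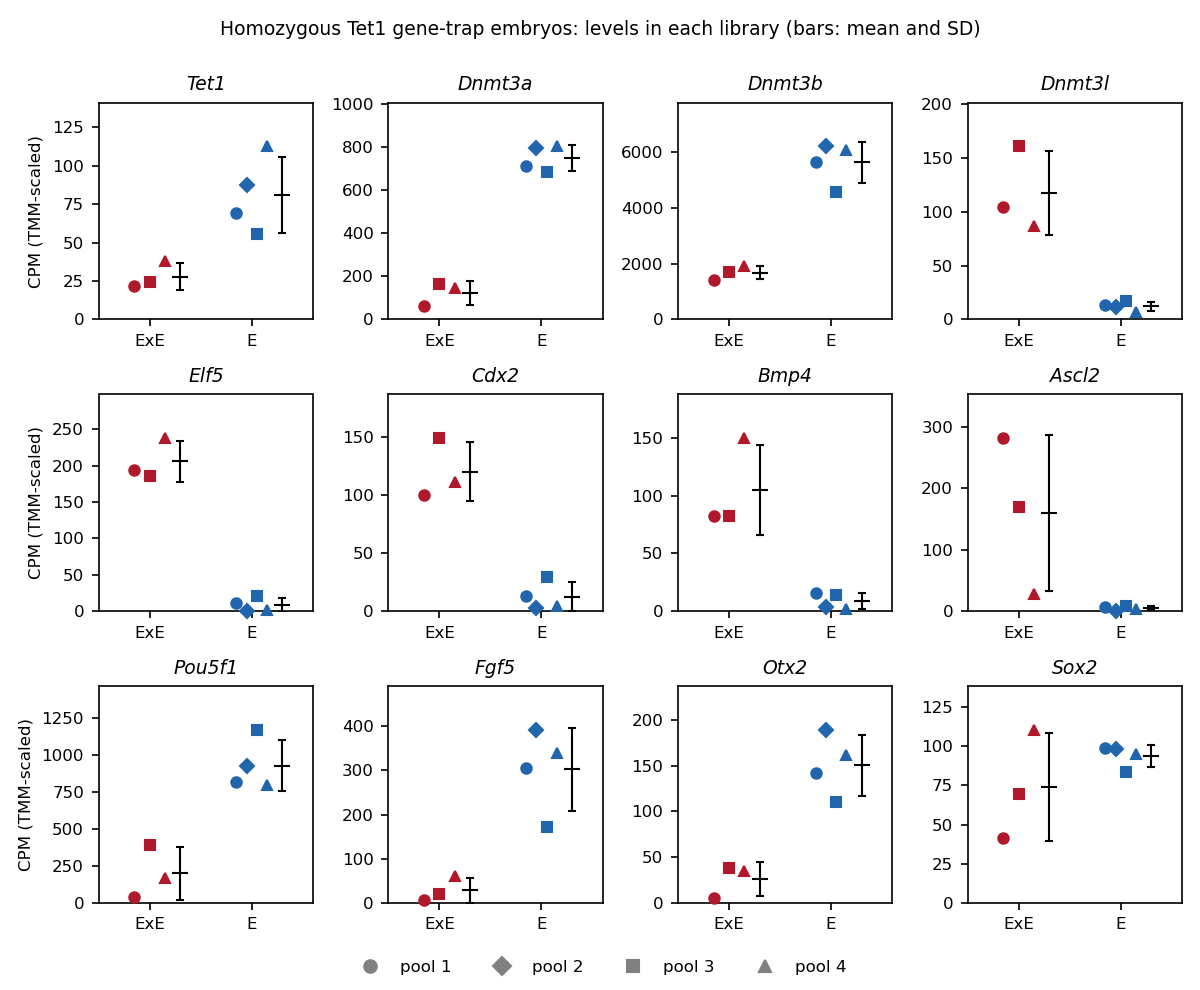
Level of 12 genes in each homozygous library, in TMM-scaled CPM on linear axes that start at 0, with ExE left of E. Symbols stand for pool numbers and the bars for the mean and SD of each tissue (n = 3 and 4). ExE and E do not overlap except for Sox2, and Pou5f1 in ExE spreads between 36.6 and 395 CPM.

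Over all genes, 2282 of 13595 were called (16.8%), 1240 higher in ExE (9.12%) and 1042 lower (7.66%). Of the genes called higher, 475 had a log2 fold change of at least 2 (3.49% of genes tested), and of those called lower, 500 had -2 or less (3.68%). At 3 and beyond, 265 were higher (1.95%) and 236 lower (1.74%). The lists below are read against the 16.8%, 9.12% and 7.66% called over all genes tested, and against their median of 0.00. All 3 ExE pools exceeded all 4 E pools in 1528 genes (11.2%) and were below all of them in 1646 (12.1%). When the test asked for more than a 2-fold difference, 247 genes were higher (1.82%) and 151 lower (1.11%). ExE pool 1 carried much of the count, since without it 1311 genes were called, 869 higher and 442 lower.

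**Figure D2:**
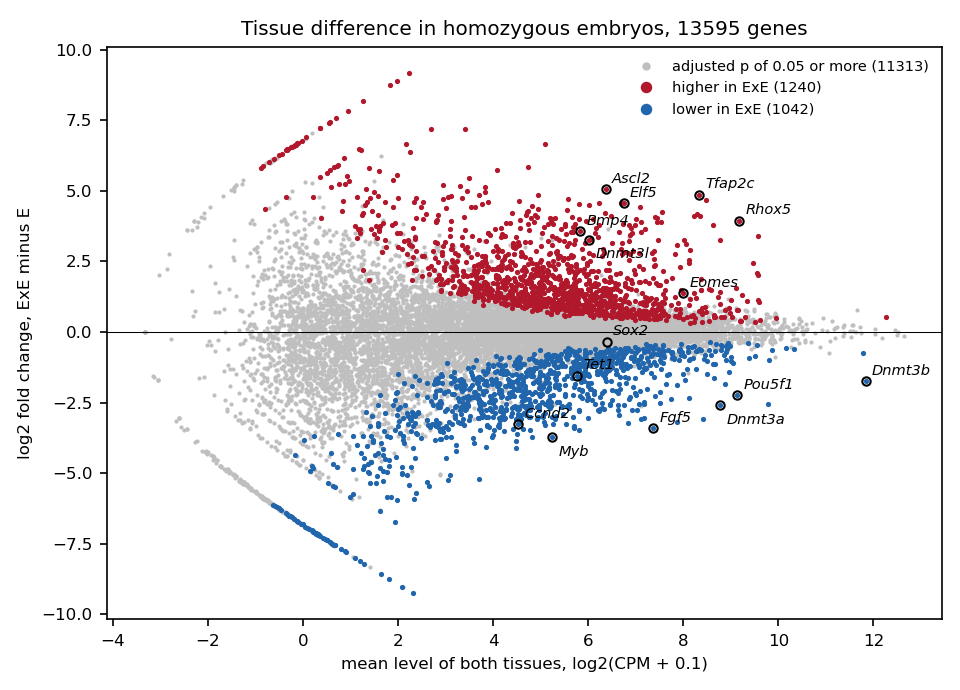
Each point is 1 of 13595 genes, with its mean log2 level over the tissues on the horizontal axis and its log2 fold change of ExE over E on the vertical axis. Red points (1240) were called higher and blue points (1042) lower in ExE, and the slanted lines of points at low level are genes with 0 counts in 1 tissue.

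Regulators of trophoblast stem cells and extra-embryonic ectoderm were higher in ExE. Of 27 tested members of this list, 22 were higher and 2 lower, with a median of 3.61. The 2 lower members were Foxd3 and the ERK inhibitor Spry4, which was named after its values were seen. The higher count was 20 to 23 when 1 library was left out and 22 with the replicate block, and the lower count was 0 without E pool 2 or ExE pool 1 and 1 without E pool 1, 3 or 4. Elf5, a transcription factor that in the mouse reinforces the trophoblast stem cell state, was at 193, 186 and 238 CPM in ExE and 11.8, 0.521, 20.9 and 1.87 CPM in E (4.57 ± 1.12, edgeR adjusted p = 0.00797). Tfap2c, an AP-2 factor of trophoblast, was at 1002, 568 and 305 CPM in ExE and 25.5, 1.35, 56.0 and 3.56 CPM in E (4.87 ± 1.28, adjusted p = 0.0122). For both genes E pools 1 and 3 were several times higher than E pools 2 and 4. Cdx2, the homeobox gene that sets the trophectoderm apart, was at 100.2, 149.5 and 112 CPM in ExE and 13.3, 2.40, 29.5 and 4.41 CPM in E (3.29 ± 0.93, adjusted p = 0.0186), and its adjusted p was 0.0567 without E pool 2 and 0.0576 without E pool 4.

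Esrrb, an orphan nuclear receptor downstream of FGF signalling in trophoblast, averaged 66.6 ± 27.4 CPM in ExE and 4.80 ± 6.14 CPM in E (3.83 ± 0.93), and Gata3 54.5 ± 14.6 CPM in ExE and 3.65 ± 3.77 CPM in E (3.89 ± 1.01). Ets2, a factor needed for trophoblast growth, was at 203, 65.9 and 161 CPM in ExE, against 37.2, 18.96, 35.9 and 31.7 CPM in E (2.21 ± 0.31). Eomes is a T-box gene of trophoblast that the epiblast also uses at the primitive streak, and its difference was smaller. It was at 299.9, 312 and 495 CPM in ExE and 193, 88.1, 169 and 118 CPM in E (1.38 ± 0.25, adjusted p = 0.000956). The tissues did not overlap for any of these 4 genes.

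Genes of the ectoplacental cone and of giant cells were also higher in ExE but varied far more between ExE pools. Of 19 tested, 12 were higher and 0 lower, with a median of 3.70, and 9 to 13 were higher when 1 library was left out. Ascl2, a factor of the ectoplacental cone, was at 282, 169.6 and 28.3 CPM in ExE pools 1, 3 and 4 and 6.73, 0.729, 8.46 and 3.39 CPM in E (5.07 ± 0.96, adjusted p = 0.00129). The placental membrane gene Plac1 was at 176, 25.8 and 1.13 CPM in ExE and 1.68, 0, 0.518 and 0.339 CPM in E, so that ExE pool 4 lay below E pool 1. It was called by edgeR (6.66 ± 1.34, adjusted p = 0.00207) and not by limma-voom (5.40, adjusted p = 0.175). Hand1, which drives giant cell formation, was at 377, 489 and 203 CPM in ExE and 16.7, 0.417, 56.6 and 1.19 CPM in E (4.26 ± 1.39, adjusted p = 0.0383), a call lost without any of 5 libraries, E pools 1, 2 and 4 and ExE pools 1 and 3 (adjusted p = 0.0654 to 0.095). ExE pool 4 was the lowest pool for all 3 genes. Summed over the 5 defining markers of the cone, the ExE pools stood at 837, 686 and 232 CPM and the E pools at 26.7, 4.27, 65.6 and 4.92 CPM. Tpbpa, the marker of spongiotrophoblast, was at 0 in every ExE pool.

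Promoter letters are shown for Elf5, whose promoter is known in the mouse as methylated in the embryonic lineage and unmethylated in trophoblast, and for 2 epiblast genes with different values, Pou5f1 and Utf1. The sequences are RefSeq promoters on GRCm38.p6, plus strand, each ending just before the transcript start, with CpG sites in capitals.
Elf5, chr2:103423818-103424061: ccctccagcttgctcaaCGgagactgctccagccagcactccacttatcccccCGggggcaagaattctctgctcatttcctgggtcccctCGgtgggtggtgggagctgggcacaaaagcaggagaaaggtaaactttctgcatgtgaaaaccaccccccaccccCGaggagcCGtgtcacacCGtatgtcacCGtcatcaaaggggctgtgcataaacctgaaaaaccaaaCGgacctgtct
Pou5f1, chr17:35505782-35506017: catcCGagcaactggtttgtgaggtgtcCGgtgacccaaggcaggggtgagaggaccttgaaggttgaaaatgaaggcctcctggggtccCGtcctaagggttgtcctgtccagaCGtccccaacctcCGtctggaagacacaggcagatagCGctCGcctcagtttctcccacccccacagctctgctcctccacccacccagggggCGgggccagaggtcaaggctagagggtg
Utf1, chr7:139943606-139943788: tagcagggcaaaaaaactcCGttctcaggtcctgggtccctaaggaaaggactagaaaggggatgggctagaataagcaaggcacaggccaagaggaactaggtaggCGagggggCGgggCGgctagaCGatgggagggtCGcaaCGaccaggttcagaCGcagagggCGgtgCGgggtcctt
The Elf5 stretch of 244 bases has 8 CpG sites, 0.412 times the number its base composition would give. Pou5f1 has 8 in 236 bases (0.354 times) and Utf1 10 in 183 bases (0.687 times). The octamer ATGCAAAT, the AP-2 motif GCCNNNGGC, the TEAD motif GGAATG and the ESRRB motif AAGGTCA, searched on both strands, have no match within these windows. Over all promoters in the reference table these motifs occur in 1.81%, 15.4%, 14.4% and 4.7%. Of the genes tested, 78.8% have a promoter in that table, and these promoters hold the motifs in 1.67%, 24.2%, 12.7% and 3.46%. Their median ratio of CpG sites to the number expected was 0.681 for genes called higher, 0.681 for genes called lower and 0.725 for genes not called. It was 0.575 for genes called with a log2 fold change of at least 2 and 0.640 for those at -2 or less. Genes without a promoter there are left out, and these differences were not tested. DNA methylation was not measured.

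Genes of the primed epiblast were lower in ExE as a group, with exceptions that the tissues share. Of 33 tested, 21 were lower and 3 higher, with a median of -1.75. ExE pool 1 mattered here, as 10 members were called lower without it. The higher count was 0 without E pool 4 and 1 without ExE pool 1 or 4. Fgf5, the growth factor that marks the post-implantation epiblast, was at 5.81, 19.8 and 59.7 CPM in ExE and 306, 393, 171 and 340.1 CPM in E (-3.40 ± 0.82, adjusted p = 0.00708). The zinc finger gene Sall2 was at 12.2, 32.4 and 19.13 CPM in ExE and 119, 164, 124 and 134 CPM in E (-2.68 ± 0.49, adjusted p = 0.000956).

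The core pluripotency factors differed among themselves. Pou5f1 was at 36.6, 395 and 166 CPM in ExE pools 1, 3 and 4 and 821, 925, 1173 and 797 CPM in E (-2.23 ± 0.67, edgeR adjusted p = 0.0252). No pools overlapped, but the ExE pools spread widely, and the call was lost without ExE pool 1 (-1.73, adjusted p = 0.1) or ExE pool 4 (-2.11, adjusted p = 0.0791). Nanog was at 7.16, 9.57 and 28.3 CPM in ExE and 58.3, 25.0, 46.3 and 75.2 CPM in E (-1.76 ± 0.68, adjusted p = 0.0776), and with the replicate block it was called (-2.21, adjusted p = 0.0396). Sox2, which trophoblast stem cells need as well, was at 41.7, 69.5 and 111 CPM in ExE and 99.0, 98.0, 83.8 and 95.0 CPM in E. Its log2 fold change of -0.34 ± 0.24 did not pass the test (adjusted p = 0.351), and without ExE pool 4 it did (-0.76, adjusted p = 0.0353). Utf1 was at 373, 933 and 389.9 CPM in ExE and 635, 717, 1174 and 512 CPM in E (-0.43 ± 0.28, adjusted p = 0.309), with pool 3 the highest in both tissues. Within litters its difference was -0.77, -0.33 and -0.39 in pools 1, 3 and 4, and with the replicate block it was called (-0.50, adjusted p = 0.00834).

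Other epiblast genes were lower in ExE with ExE pool 1 the lowest. Otx2, a homeobox gene of the primed state and the anterior, was at 4.86, 38.3 and 35.2 CPM in ExE and 142, 189, 110.0 and 161 CPM in E (-2.53 ± 0.69), and lost its call without ExE pool 1 (-2.03, adjusted p = 0.069). Foxd3, which keeps epiblast cells pluripotent, was at 0.945, 21.4 and 7.93 CPM in ExE and 56.1, 50.7, 66.5 and 57.2 CPM in E (-2.55 ± 0.84, adjusted p = 0.0405), a call lost without any 1 of 6 libraries, all but ExE pool 3 (adjusted p = 0.0506 to 0.142). The summed level of the whole list was 4992, 6543 and 6362 CPM in ExE pools 1, 3 and 4 and 12996, 14228, 12669 and 13314 CPM in E. ExE pool 1 was thus the farthest from epiblast in these genes, as it was in the 8 defining markers. Whether the amount of epiblast material in an ExE pool has a part in these differences was not tested.

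Naive pluripotency genes, which the inner cell mass uses before implantation, were mostly higher in ExE. Of 13 tested, 8 were higher and 1 lower, with a median of 2.84, and 2 were lower without ExE pool 3. The list shares Esrrb and Zfp42 with the trophoblast list. Zfp42 (Rex1) was at 109.9, 44.0 and 102 CPM in ExE and 10.99, 0.937, 10.4 and 2.04 CPM in E (3.82 ± 0.70, adjusted p = 0.00103). Nr0b1 (Dax1), an orphan nuclear receptor gene, was at 59.0, 68.1 and 86.4 CPM in ExE and 8.97, 1.25, 6.39 and 1.19 CPM in E (3.99 ± 0.85). Klf5 averaged 84.6 ± 16.3 CPM in ExE and 7.63 ± 3.75 CPM in E (3.46 ± 0.58) and Stat3, the effector of LIF signalling, 47.0 ± 16.5 CPM in ExE and 7.71 ± 2.46 CPM in E (2.60 ± 0.45). The tissues did not overlap for any of these 4 genes.

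**Figure D3:**
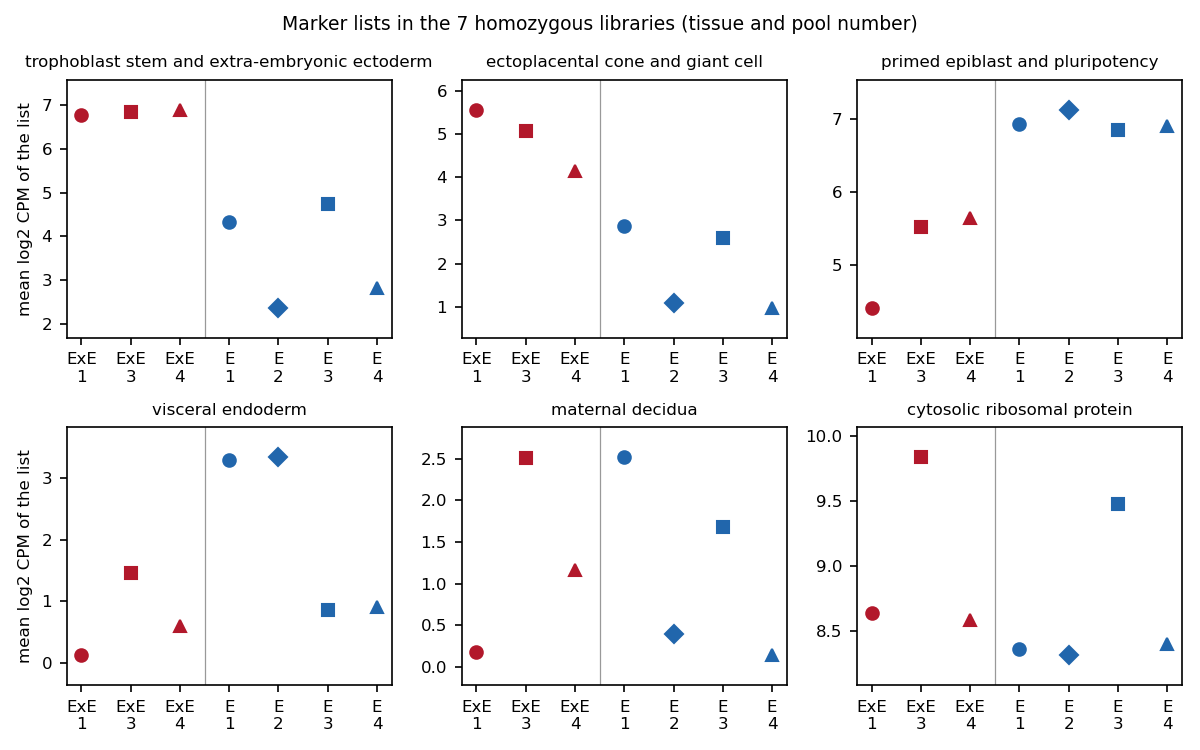
Mean log2 CPM of 6 gene lists in each of the 7 homozygous libraries, with the 3 ExE pools left of the 4 E pools and symbols for pool numbers. Trophoblast, cone and primed epiblast lists separate the tissues, the visceral endoderm list is highest in E pools 1 and 2, and the ribosomal protein list is highest in pool 3 of both tissues.

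The FGF axis between the tissues showed the ligand gene Fgf4 lower and the receptor gene Fgfr2 higher in ExE. Fgf4, the epiblast signal to trophoblast stem cells, was at 3.78, 16.6 and 4.03 CPM in ExE and 42.1, 92.1, 33.5 and 49.0 CPM in E (-2.77 ± 0.89, adjusted p = 0.0355), and the call was lost without E pool 2 or 4 or ExE pool 1 or 4 (adjusted p = 0.0552 to 0.14). Its receptor gene Fgfr2 was at 287, 109 and 313 CPM in ExE and 21.9, 12.7, 24.0 and 8.99 CPM in E (3.81 ± 0.55, adjusted p = 0.000149). Etv5, an ETS factor that responds to FGF, was at 102, 98.9 and 167 CPM in ExE and 381, 424, 325 and 462 CPM in E (-1.70 ± 0.25, adjusted p = 0.000167). Neither Fgfr2 nor Etv5 had pools that overlapped. The adaptor gene Grb2 was at 115, 88.2 and 102 CPM in ExE and 61.7, 63.2, 62.5 and 58.2 CPM in E (0.73 ± 0.16). Of the 32 tested genes of the FGF and ERK pathway, 4 were higher and 7 lower, with a median of -0.21, and 3 were lower without ExE pool 1.

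The BMP ligands Bmp4, Bmp8a and Bmp8b were higher in ExE. Bmp4, the extra-embryonic signal that acts on the proximal epiblast, was at 82.5, 82.7 and 150.3 CPM in ExE and 15.6, 3.44, 14.2 and 1.87 CPM in E (3.58 ± 0.82, adjusted p = 0.00506). Bmp8b, which in the mouse helps to induce germ cells, was at 142, 83.6 and 145 CPM in ExE and 10.1, 2.60, 7.77 and 1.53 CPM in E (4.48 ± 0.88), and its neighbour Bmp8a averaged 15.5 ± 1.68 CPM in ExE and 1.39 ± 1.31 CPM in E (3.41 ± 0.86). Bmp8a and Bmp8b are near-identical copies, so their counts may share reads. Id2, a target of BMP signalling and a trophoblast marker, was at 604, 855 and 764 CPM in ExE and 52.7, 20.9, 109.7 and 30.4 CPM in E (3.80 ± 0.75). None of these genes had pools that overlapped. Bmp2, another ligand, was at 1.08, 5.70 and 1.01 CPM in ExE and 13.1, 13.6, 1.55 and 0.339 CPM in E and did not pass the test (-1.49 ± 1.45). Of 20 genes of the pathway, 6 were higher and 1 lower, with a median of 0.06, and 0 were lower without ExE pool 1.

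Genes of the Nodal and TGF-beta pathway were called in both directions. Nodal itself, the ligand that keeps the epiblast pluripotent, was at 3.24, 8.66 and 8.69 CPM in ExE and 24.0, 26.1, 33.7 and 17.8 CPM in E, without overlap but not called (-1.89 ± 0.81, adjusted p = 0.113). Its co-receptor gene Tdgf1 (Cripto) was at 23.8, 42.4 and 113 CPM in ExE and 223, 223, 218 and 301 CPM in E (-2.01 ± 0.51, adjusted p = 0.00947), and lost its call without ExE pool 1 (-1.63, adjusted p = 0.0578). Pcsk6 (PACE4), the protease from extra-embryonic ectoderm that cleaves the Nodal precursor, went the other way. It was at 99.6, 94.4 and 133 CPM in ExE and 28.6, 28.3, 22.6 and 16.8 CPM in E (2.18 ± 0.37, adjusted p = 0.000522). The signal transducer Smad3 was at 55.0, 73.2 and 69.5 CPM in ExE and 23.8, 14.9, 14.2 and 18.0 CPM in E (1.89 ± 0.25), and the inhibitory Smad7 was higher by 1.07 ± 0.18. Tgif1, a repressor of SMAD targets, was at 57.1, 89.3 and 82.7 CPM in ExE and 188, 221, 192 and 217 CPM in E (-1.42 ± 0.22). Of 25 genes, 3 were higher and 7 lower, with a median of -0.55. The count of lower genes was 1 without ExE pool 1, 4 without ExE pool 4, 3 without E pool 2 and 11 without the 3 libraries that have a length and GC slope.

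In the WNT pathway 1 of 34 tested genes was higher and 6 were lower, with a median of -1.24, the lowest of the signalling lists. In total 20.6% of this list was called, not far from the 16.8% of all genes tested. The receptor gene Fzd7 was at 25.0, 55.4 and 72.6 CPM in ExE and 173, 198, 163 and 247 CPM in E (-1.94 ± 0.35, adjusted p = 0.000928). Fzd2 was at 1.08, 36.5 and 19.5 CPM in ExE and 104, 131, 178 and 98.6 CPM in E (-2.77 ± 0.76), and the secreted inhibitor Sfrp1 at 0.945, 15.3 and 11.5 CPM in ExE and 73.2, 93.5, 41.1 and 74.7 CPM in E (-2.96 ± 0.73, adjusted p = 0.00808). For all 3 genes ExE pool 1 was the lowest pool. The transcription factor gene Lef1 was at 8.51, 47.9 and 14.7 CPM in ExE and 147, 133, 125 and 125 CPM in E (-2.50 ± 0.69), a call lost without ExE pool 1 (adjusted p = 0.0862) or pool 4 (0.0664). The count of lower genes was 3 without ExE pool 1, 10 without E pool 3 and 13 with DESeq2. The count of higher genes was 2 without E pool 3 and 0 without E pool 1, 2 or 4 or ExE pool 1 or 3.

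**Figure D4:**
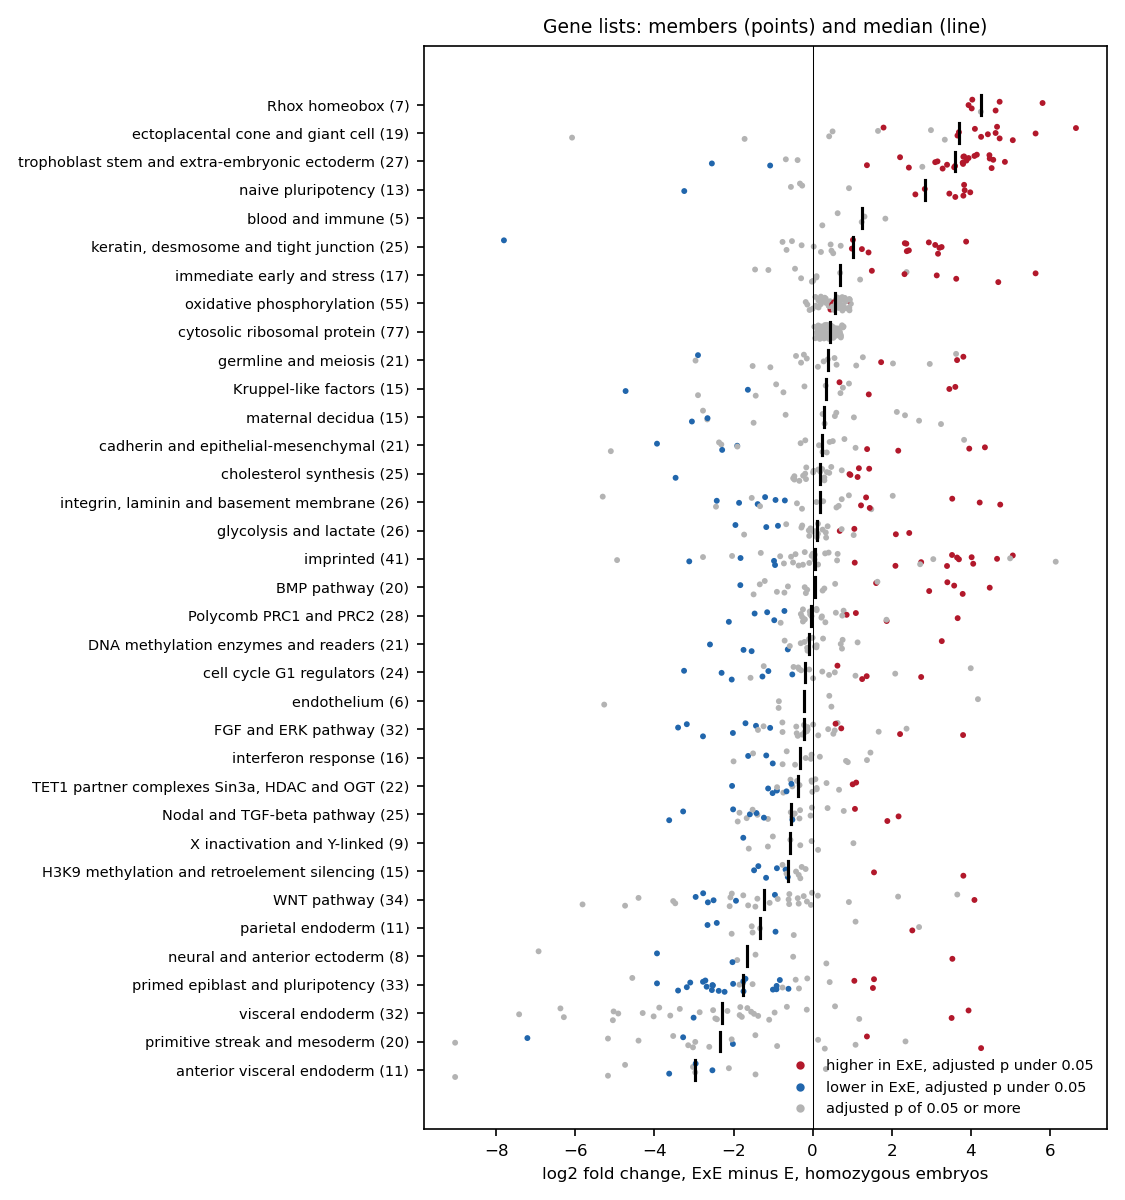
Log2 fold change of ExE over E in homozygous embryos for the tested members of 35 gene lists, ordered by median (black line), with the number tested in brackets. Red and blue points were called higher and lower. Rhox, cone, trophoblast and naive lists lie to the right, and anterior visceral endoderm, streak, visceral endoderm and primed epiblast lists to the left.

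Genes of chromatin complexes were called in both directions. Of 28 Polycomb genes 4 were higher and 5 lower, with a median of -0.04. Without ExE pool 1 these counts were 2 higher and 3 lower, and 3 were lower without E pool 2 or ExE pool 4. Phc1, a PRC1 subunit, was at 32.0, 114 and 59.0 CPM in ExE and 235, 339.5, 314 and 291 CPM in E (-2.12 ± 0.39, adjusted p = 0.00101), while its paralogue Phc2 was at 88.3, 171 and 99.7 CPM in ExE and 53.7, 49.3, 81.7 and 39.2 CPM in E (1.10 ± 0.25). Cbx2, a reader of the Polycomb mark, was lower by -1.15 ± 0.21 and Pcgf5 higher by 1.87 ± 0.29. The pools did not overlap for these 4 genes. Of 15 genes of H3K9 methylation and retroelement silencing, 2 were higher and 6 lower, with a median of -0.63. Suv39h1, a methyltransferase of constitutive heterochromatin, was at 38.8, 33.5 and 48.7 CPM in ExE and 117, 120.1, 62.5 and 119 CPM in E (-1.37 ± 0.26), Cbx1 (HP1 beta) averaged 74.0 ± 11.9 CPM in ExE and 138 ± 15.3 CPM in E (-0.90 ± 0.16), and Atf7ip, a partner of the methyltransferase SETDB1, was lower by -1.48 ± 0.34. Zfp42, already given above, is counted among the 2 higher, a count that was 1 without any 1 library other than E pool 2 or ExE pool 3.

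Of 22 genes for complexes that bind TET1 or its partners (SIN3A, histone deacetylase and OGT complexes), 2 were higher and 6 lower, with a median of -0.36. NuRD subunits of the MTA family went in both directions. Mta1 was at 31.7, 44.9 and 30.6 CPM in ExE and 160.5, 144, 162 and 118 CPM in E (-2.04 ± 0.21, adjusted p = 6.96e-06). Mta3 was at 202, 237 and 177 CPM in ExE and 88.7, 102, 114 and 77.9 CPM in E (1.10 ± 0.16, adjusted p = 0.000167), and Mta2 at 250.1, 234 and 247 CPM in ExE and 414, 352, 399.6 and 374 CPM in E (-0.66 ± 0.14, adjusted p = 0.00277). Each of the 3 separated the tissues without overlap, Mta3 upward and the others downward. Ing1, a subunit of the SIN3A complex that reads H3K4 methylation, averaged 60.1 ± 2.99 CPM in ExE and 112 ± 16.4 CPM in E (-0.90 ± 0.19).

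Imprinted genes were called in both directions. Of 41 tested imprinted genes, 11 were higher and 4 lower, with a median of 0.06, and 2 were lower without ExE pool 1. Phlda2, a maternally expressed gene that restrains placental growth, was at 912, 983 and 161 CPM in ExE pools 1, 3 and 4 and 21.1, 13.9, 66.1 and 7.30 CPM in E (4.67 ± 0.86, adjusted p = 0.00109). Cdkn1c, a maternally expressed inhibitor of the cell cycle, was at 329.9, 154 and 129 CPM in ExE and 25.2, 25.7, 49.0 and 22.1 CPM in E (2.75 ± 0.37, adjusted p = 8.23e-05). Both lie with Ascl2 in one imprinted domain of chromosome 7, and for all 3 genes ExE pool 4 was the lowest ExE pool. Gab1 and Smoc1 are imprinted in the mouse extra-embryonic lineage without germline DNA methylation. Gab1 was at 396, 125 and 245 CPM in ExE and 32.4, 21.5, 22.6 and 11.7 CPM in E (3.53 ± 0.57), and Smoc1 at 74.0, 52.4 and 46.2 CPM in ExE and 15.6, 9.89, 20.9 and 7.47 CPM in E (2.10 ± 0.37). On the lower side, Gnas was at 194, 290.4 and 219.9 CPM in ExE and 480.4, 394, 463 and 476 CPM in E (-0.95 ± 0.16). Counts do not separate the parental alleles.

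Rhox genes and germline genes that DNA methylation is known to silence were read as well. The Rhox homeobox cluster lies on the X chromosome and is expressed in placenta and germ line. Of 7 Rhox genes of the list tested, 6 were higher, with a median of 4.26, the highest of the 35 lists. Rhox5 was at 1002, 1115 and 1138 CPM in ExE and 79.2, 29.8, 166 and 6.79 CPM in E (3.95 ± 1.08, adjusted p = 0.015), Rhox6 at 37.4, 80.7 and 16.4 CPM in ExE and 3.14, 0.729, 2.76 and 0.509 CPM in E, and Rhox9 at 18.2, 28.9 and 11.1 CPM in ExE and 1.35, 0, 0.518 and 1.02 CPM in E. The pools did not overlap for these genes, and Rhox copies with near-identical sequence may share reads. Of 21 germline and meiosis genes, 3 were higher and 1 lower, with a median of 0.39, and 2 were lower without ExE pool 4. Tex19.1, which in the mouse restrains retrotransposons in germ cells and placenta, was at 255, 349 and 209 CPM in ExE and 17.7, 7.39, 55.4 and 5.94 CPM in E (3.66 ± 0.89), and Sycp3, a gene of the synaptonemal complex, at 3.51, 1.82 and 1.64 CPM in ExE and 17.4, 25.7, 9.84 and 17.1 CPM in E (-2.90 ± 0.45, adjusted p = 0.000286).

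By chromosome, 14.2% of 534 tested X-linked genes were higher and 13.7% lower, against 8.96% and 7.44% of 12951 autosomal genes. Without the Rhox genes 11.6% of 516 X-linked genes were higher and 14.1% lower. The median log2 fold change was -0.14 on the X and 0.01 on the autosomes. Of the 5 tested Y-linked genes 0 were called. Ftx, a noncoding gene of the X inactivation centre, was at 11.2, 8.20 and 14.1 CPM in ExE and 43.3, 37.6, 18.7 and 51.9 CPM in E (-1.75 ± 0.43, adjusted p = 0.00795). Reads of antisense or overlapping genes in that region cannot be told apart, since no label says whether the counting used strand.

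Epithelial junction genes were mostly higher in ExE. Of 25 tested genes of keratins, desmosomes and tight junctions, 14 were higher and 1 lower, with a median of 1.02, and 0 were lower without any 1 library other than E pool 3. Krt8, a keratin of simple epithelium and trophoblast, was at 749, 525 and 151 CPM in ExE and 65.3, 58.7, 77.5 and 19.3 CPM in E (3.10 ± 0.64, adjusted p = 0.00249). The tight junction gene Tjp3 was at 72.4, 55.8 and 22.4 CPM in ExE and 9.20, 10.3, 12.95 and 7.30 CPM in E (2.33 ± 0.42). For both, ExE pool 1 was the highest and pool 4 the lowest, with no overlap with E. F11r, which encodes a junctional adhesion molecule, was at 169.9, 206 and 295 CPM in ExE and 113, 117, 120.0 and 90.6 CPM in E (1.02 ± 0.18), and plakoglobin (Jup) at 77.2, 63.1 and 52.4 CPM in ExE and 22.1, 28.1, 35.9 and 22.1 CPM in E (1.25 ± 0.25).

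Cadherins differed by member. Cdh3 (P-cadherin) was at 55.8, 58.8 and 57.4 CPM in ExE and 17.4, 29.2, 20.7 and 20.7 CPM in E (1.38 ± 0.28, adjusted p = 0.00197). Pcdh1, a protocadherin gene, was at 18.5, 38.5 and 23.5 CPM in ExE and 101, 109.8, 95.5 and 93.9 CPM in E (-1.91 ± 0.37, adjusted p = 0.00149), and Esrp2, a splicing factor of epithelia, at 77.0, 39.0 and 17.1 CPM in ExE and 2.24, 1.25, 6.91 and 1.19 CPM in E (3.96 ± 0.74). Of the 21 tested cadherin and epithelial-mesenchymal genes, 4 were higher and 3 lower, with a median of 0.25. The lower count was 1 without E pool 2 or ExE pool 1 or 3 and 2 without any other library. Among 26 integrin, laminin and basement membrane genes 6 were higher and 6 lower, with a median of 0.18. The higher count was 2 without E pool 2 or ExE pool 1 and 3 without E pool 4 or ExE pool 4. The lower count was 2 without E pool 2 or ExE pool 1 and 3 without E pool 1 or ExE pool 4. The laminin-binding integrin gene Itga7 was at 167, 138 and 158 CPM in ExE and 11.4, 0, 19.9 and 2.04 CPM in E (4.23 ± 1.11), and dystroglycan (Dag1) at 349, 209 and 262 CPM in ExE and 108, 129, 91.0 and 98.9 CPM in E (1.35 ± 0.21). Fibronectin (Fn1) was lower, at 11.6, 21.4 and 21.3 CPM in ExE and 57.8, 53.7, 62.0 and 88.9 CPM in E (-1.86 ± 0.44), as was nidogen-2 (Nid2), at 39.0, 47.9 and 51.7 CPM in ExE and 129, 131, 92.1 and 132 CPM in E (-1.39 ± 0.24).

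Among regulators of G1, the D-type cyclin genes Ccnd2 and Ccnd3 were called in opposite directions. Ccnd2 was at 2.97, 4.33 and 5.79 CPM in ExE and 43.7, 52.2, 30.2 and 40.7 CPM in E (-3.25 ± 0.48, adjusted p = 0.000167). Ccnd3 was at 377, 601 and 307 CPM in ExE and 138, 133, 285 and 107 CPM in E (1.37 ± 0.30, adjusted p = 0.00429), and Mycn, a growth regulator, at 215, 249 and 282 CPM in ExE and 530.1, 641, 475 and 513 CPM in E (-1.12 ± 0.19). Neither cyclin had overlapping pools. Of 24 G1 genes, 4 were higher and 6 lower, with a median of -0.19. Of 26 glycolysis and lactate genes 4 were higher and 3 lower, with a median of 0.11, and 2 were higher without E pool 4 and 1 lower without ExE pool 1. The hexokinase gene Hk1 was at 141, 191 and 163 CPM in ExE and 52.6, 23.2, 48.0 and 29.4 CPM in E (2.11 ± 0.32), the phosphofructokinase gene Pfkp at 178, 86.2 and 178 CPM in ExE and 24.7, 24.1, 50.9 and 8.66 CPM in E (2.45 ± 0.44), and the muscle-type enolase gene Eno3 at 7.43, 16.0 and 20.9 CPM in ExE and 56.0, 38.3, 82.0 and 52.3 CPM in E (-1.95 ± 0.44).

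The AP-1 genes Junb, Fos and Fosl2, of a family that responds to growth factors and to handling of tissue, were higher in ExE. Of 17 tested immediate early and stress genes, 6 were higher and 0 lower, with a median of 0.70, and 1 was lower without ExE pool 3. Junb was at 87.0, 161 and 80.4 CPM in ExE and 11.999, 7.81, 24.9 and 5.09 CPM in E (3.14 ± 0.58, adjusted p = 0.00103), Fos at 15.5, 10.0 and 18.0 CPM in ExE and 0.449, 0, 1.21 and 0.679 CPM in E (4.70 ± 1.06), and Fosl2 at 15.9, 16.6 and 14.0 CPM in ExE and 0.785, 0.833, 2.42 and 1.02 CPM in E (3.63 ± 0.71). No pools overlapped for these genes. The Krüppel-like list (15 tested, 4 higher, 2 lower, median 0.33) held Klf5 and Klf2 among the higher and Klf13 among the lower, the last at 17.1, 51.1 and 16.5 CPM in ExE and 75.8, 83.9, 118 and 70.8 CPM in E (-1.64 ± 0.36). Without ExE pool 1 the lower count of this list was 1. Of 25 cholesterol synthesis genes 5 were higher and 1 lower, with a median of 0.19, and Msmo1, a sterol oxidase gene, was at 92.6, 81.6 and 73.8 CPM in ExE and 40.8, 34.8, 43.5 and 51.3 CPM in E (0.96 ± 0.22, adjusted p = 0.00519). Of the cholesterol genes 3 were higher without E pool 2 or ExE pool 1, and 0 were lower without ExE pool 1. Of 16 interferon-response genes 0 were higher and 3 lower, with a median of -0.31, and 1 was lower without E pool 3 or 4 or ExE pool 1 or 4. The share called, 18.8%, was near the 16.8% of all genes tested.

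Ribosomal protein and oxidative phosphorylation genes were highest in pool 3 of both tissues. The summed level of 77 cytosolic ribosomal protein genes was 44105, 101190.0 and 41392 CPM in ExE pools 1, 3 and 4 and 38508, 37447, 78664 and 37433 CPM in E pools 1, 2, 3 and 4. Pool 3, which had the length and GC slope, was the highest in both tissues. All 77 had a positive log2 fold change, with a median of 0.43, and 0 were called, while with the replicate block 22 were called higher. DESeq2 and limma-voom also called 0, and edgeR called 18 without E pool 3. Of 55 oxidative phosphorylation genes 4 were higher and 0 lower, with a median of 0.56, and 27 were higher with the replicate block, 27 without E pool 3, 1 without E pool 1, 2 or 4, 2 without ExE pool 1 or 3 and 8 without ExE pool 4. A correction for GC content and length gave 17. Without these changes 7.27% of the oxidative phosphorylation list was called, below the 16.8% of all genes tested. Atp5c1, a subunit of ATP synthase, was at 515, 594 and 474 CPM in ExE and 357, 358, 393 and 346 CPM in E (0.54 ± 0.13, adjusted p = 0.00636). Ribosomal protein genes have many near-identical copies, so their counts are uncertain.

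Defining markers of other tissues that a dissection could carry were low and uneven. The summed level of 8 visceral endoderm markers was 10.4, 63.6 and 17.5 CPM in ExE pools 1, 3 and 4 and 170, 251, 16.1 and 24.1 CPM in E pools 1, 2, 3 and 4. E pools 1 and 2 stood apart from the rest, and Hnf4a was at 0 in every ExE pool. Summed over all 34 genes of the list, every ExE pool (1559, 2628 and 1753 CPM) was above every E pool (927, 1074, 740 and 359 CPM). That sum includes Rhox5, given above, and Apoe, at 449, 1112 and 497 CPM in ExE and 313, 316, 428 and 153 CPM in E. Apoe pools did not overlap, but Apoe was not called (1.18 ± 0.45, edgeR adjusted p = 0.0754). Of 32 visceral endoderm genes tested, 2 were higher and 1 lower, with a median of -2.29. The share called, 9.38%, was below the 16.8% of all genes tested. The higher count was 1 without E pool 2 or 4 or ExE pool 3, and the lower count was 0 without ExE pool 1 and 2 without E pool 3 or ExE pool 3. The 2 higher genes, Rhox5 and Cited1, are also expressed by trophoblast, and Cited1 was at 76.2, 259 and 55.6 CPM in ExE and 16.3, 4.79, 19.7 and 4.75 CPM in E (3.52 ± 0.99, adjusted p = 0.0171, against 0.0554 without E pool 2, 0.0542 without E pool 4 and 0.0887 without ExE pool 3). Dab2, an endocytic adaptor gene of endoderm, was at 9.05, 9.80 and 8.43 CPM in ExE and 153, 179, 12.6 and 27.5 CPM in E (-3.36 ± 1.24, adjusted p = 0.0661, and called with the replicate block at -2.11, adjusted p = 0.042, or without E pool 3 at -3.71, adjusted p = 0.0376).

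Anterior visceral endoderm genes had their highest summed level in E pool 2. Of 11 tested, 0 were higher and 3 lower, with a median of -2.97, and 5 were lower without E pool 3 and 1 without ExE pool 1. Cer1, a secreted Nodal antagonist of that tissue, was at 0 in all ExE pools and at 9.98, 23.5, 0 and 0 CPM in E pools 1, 2, 3 and 4 (adjusted p = 0.0619, and 0.0373 without E pool 3). Lefty1, another antagonist, was at 0.135, 1.82 and 0.504 CPM in ExE and 10.5, 20.9, 4.14 and 2.38 CPM in E (-3.63 ± 1.00, adjusted p = 0.0154, and -2.84, adjusted p = 0.0789, with the replicate block). Without E pool 2, ExE pool 1 or ExE pool 4 its call was lost as well (adjusted p = 0.0572 to 0.0793). Both genes were highest in E pool 2 and next in E pool 1. The part of endoderm content in these differences was not tested.

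The 5 defining decidua markers had their highest summed level in ExE pool 3. That level was 17.8, 248 and 33.5 CPM in ExE and 43.3, 4.79, 22.5 and 12.1 CPM in E. Among these markers Prl8a2, which decidual cells express, was at 13.2, 175 and 17.5 CPM in ExE and 19.5, 0.208, 7.08 and 1.70 CPM in E (3.25 ± 1.34, adjusted p = 0.1). Over all 20 genes of the decidua list the sum was 30.0, 306 and 59.3 CPM in ExE and 153, 100.1, 103 and 58.9 CPM in E. The mean log2 CPM of that list was 2.52 in E pool 1 and 2.51 in ExE pool 3. Of 15 tested decidua genes 0 were higher and 2 lower, with a median of 0.30. Leaving out E pool 3 gave 1 higher, and leaving out E pool 1 or ExE pool 1 or 4 gave 1 lower. The share of decidua genes called, 13.3%, was below the 16.8% of all genes tested. Of 5 tested blood and immune genes and 6 endothelial genes 0 were called, and Ptprc and Csf1r, the markers of leukocytes and macrophages, were at 0 in every ExE pool. The haemoglobin gene Hbb-bs was at 2.16, 8.20 and 3.15 CPM in ExE and 3.36, 1.35, 0.864 and 1.53 CPM in E, and globin copies may share reads.

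Among called genes whose pools did not overlap and whose mean log2 CPM reached 3, Ascl2, Tfap2c, Fgfbp1, Phlda2 and AU018091 were the highest in ExE. Fgfbp1, which releases FGF from the matrix, was at 163, 85.0 and 27.7 CPM in ExE and 4.37, 1.67, 8.12 and 0 CPM in E (4.71 ± 1.08, adjusted p = 0.00513). Ahnak, a large scaffold protein gene, was at 202, 199.9 and 194 CPM in ExE and 10.5, 0.833, 17.6 and 4.92 CPM in E (4.57 ± 1.09), and Sox21, an HMG-box factor gene, at 104, 93.0 and 123 CPM in ExE and 6.62, 0, 8.81 and 3.39 CPM in E (4.53 ± 1.00). Their ExE pools lay close together. Morc4 was at 656, 283 and 828 CPM in ExE and 58.1, 12.3, 47.5 and 10.9 CPM in E (4.19 ± 0.94). Others among the 15 were Elf5, Bmp8b, Gjb5, Hand1 and Itga7, with log2 fold changes of 4.23 to 4.57. Of these, Gjb5 and Hand1 lost their call without any 1 of E pools 1, 2 and 4 and ExE pools 1 and 3 (adjusted p = 0.0638 to 0.108).

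On the lower side, by the same rule, Jph3 and Dpysl5 were among the lowest in ExE. Jph3, a junctophilin gene of neurons, was at 1.89, 1.37 and 3.78 CPM in ExE and 46.8, 32.1, 45.6 and 43.1 CPM in E (-4.11 ± 0.76, adjusted p = 0.00109). Dpysl5, which acts in growth cones, was at 0.810, 4.56 and 3.40 CPM in ExE and 41.3, 59.2, 19.7 and 46.5 CPM in E (-3.87 ± 0.88), and ankyrin-G (Ank3) at 0.405, 2.73 and 5.79 CPM in ExE and 32.2, 47.1, 26.1 and 30.9 CPM in E (-3.50 ± 0.76). ExE pool 1 was the lowest for Dpysl5 and Ank3 and pool 3 for Jph3. Myb, a proto-oncogene known from blood progenitors, was at 1.22, 3.87 and 10.7 CPM in ExE and 73.5, 95.6, 40.9 and 70.3 CPM in E (-3.71 ± 0.87), and Enpp2 (autotaxin), which makes lysophosphatidic acid, at 8.51, 3.87 and 15.1 CPM in ExE and 89.3, 145, 49.7 and 125 CPM in E (-3.45 ± 0.66). Others among the 15 were Nrcam, Mpdz, Greb1, Armcx1, Pipox, Ror2, Slc35d3, Stk39 and Fgf5, between -3.73 and -3.40. Without ExE pool 1 the calls of Nrcam, Mpdz, Pipox, Ror2 and Slc35d3 were lost (adjusted p = 0.0551 to 0.1), and that of Ror2 also without ExE pool 3 (0.0705).

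Some called genes had 0 counts in every library of a tissue, 24 in E and 46 in ExE, and their folds are lower bounds against the level of 3 counts in whichever library of that tissue has the highest such level. Vgll1, a cofactor of TEAD factors in trophoblast, was at a mean of 9.22 CPM in ExE, at least 17.8-fold higher than the floor of 0.518 CPM in E. Slit2, an axon guidance gene, was at a mean of 9.69 CPM in E and at least 14.2-fold lower in ExE. Both were chosen after their values were seen, as the largest bounds in each direction.

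The tissue difference in homozygous embryos was set against that in wt and heterozygous embryos, which share no library with it but enter the same model fit. In wt embryos 2347 genes were called (17.3%, with 9.28% higher and 7.98% lower) and in heterozygous embryos 3664 (27.0%, with 12.0% higher and 14.9% lower). Of the genes called in homozygous embryos, 1523 were called in the same direction in wt, which is 66.7% of the homozygous and 64.9% of the wt calls, and 1868 in heterozygous embryos, which is 81.9% of the homozygous and 51.0% of the heterozygous calls. Of the 2282 homozygous calls 2258 (98.9%) had the same sign in wt and 2270 (99.5%) in heterozygous embryos. When the difference between genotypes was itself tested, 0 genes passed in edgeR for homozygous minus wt, where 416 of 13595 (3.06%) had p under 0.05 before adjustment. DESeq2 called 3 genes and limma-voom 0. Likewise 0 passed for homozygous minus heterozygous in edgeR, where 624 (4.59%) had p under 0.05 before adjustment. DESeq2 called 6 of these differences and limma-voom 0. A p that misses the threshold does not show that genotypes had the same difference, and for single genes the intervals were wide. For Elf5 the homozygous minus wt difference was 0.25 ± 1.42 and for Pou5f1 0.06 ± 0.84 (SE), while for Dnmt3b it was -0.17 ± 0.27.

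**Figure D5:**
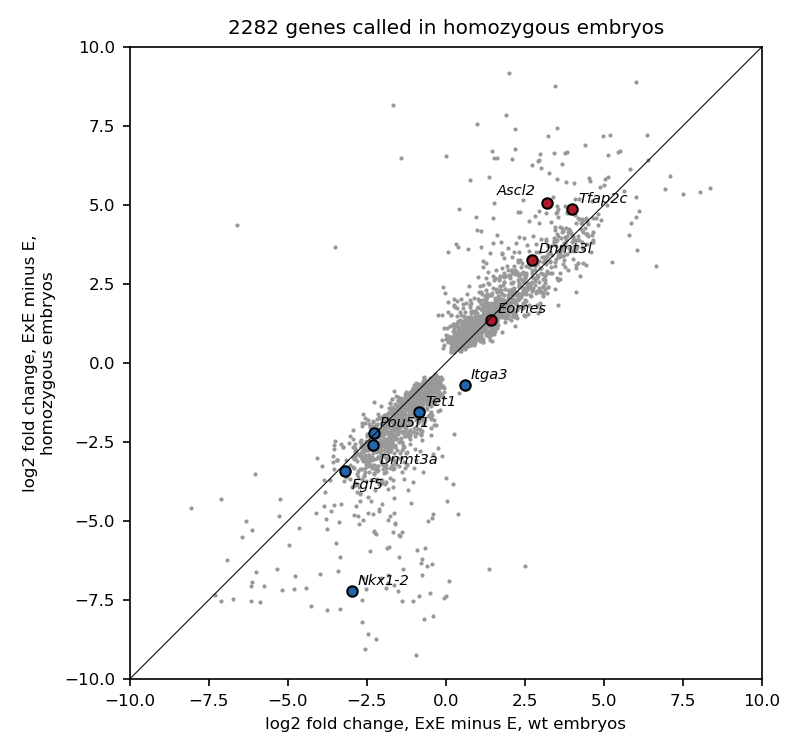
Log2 fold change of ExE over E in homozygous embryos (vertical) against that in wt embryos (horizontal) for the 2282 genes called in homozygous embryos, with a line of equality. Most points lie in the same quadrants (2258 have the same sign), and the gap around 0 on the vertical axis follows from selecting called genes.

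Among the genes of smallest p for homozygous minus wt, Itga3, an integrin subunit gene, had opposite directions in the genotypes. It was at 59.1, 79.5 and 44.2 CPM in homozygous ExE and 92.3, 115, 97.6 and 90.6 CPM in homozygous E (-0.70 ± 0.20, adjusted p = 0.0205), against 83.7 ± 2.03 CPM in wt ExE and 55.1 ± 4.58 CPM in wt E (SD, n = 4 each, 0.60 ± 0.18, adjusted p = 0.0274). The difference of the differences was -1.30 ± 0.27 (adjusted p = 0.63). The homozygous call was lost without E pool 2 (adjusted p = 0.0627) or ExE pool 1 (0.0742) or 4 (0.113). Only 3 genes were called in both genotypes with opposite signs, Itga3, Aph1b and Ttc18, and Ttc18 was at 0.135, 0 and 2.64 CPM in homozygous ExE and 0, 0.104, 0 and 0 CPM in homozygous E, close to its floor. Aph1b lost its homozygous call without any 1 of the 7 libraries (adjusted p = 0.0514 to 0.0961), and Ttc18 without any but ExE pool 3 (0.0563 to 0.715). The gene 1700047I17Rik2 was higher in ExE in both genotypes, at 112, 94.6 and 90.0 CPM in homozygous ExE and 18.6, 19.996, 23.1 and 21.4 CPM in homozygous E (2.25 ± 0.22), against 74.4 ± 11.3 CPM in wt ExE and 34.3 ± 9.40 CPM in wt E (1.12 ± 0.20), a difference of 1.13 ± 0.30 (adjusted p = 1.00). For homozygous minus heterozygous, the imprinted Nnat, among the genes of smallest p, differed by 2.92 ± 0.63 (adjusted p = 0.694).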

How the data were processed

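RNA from each pool was read as 75-base single-end sequence, from 1 to 10 ng of RNA with an integrity number above 8, per the labels' protocols. The submitters' processing notes name cutadapt 1.7.1, FastX 0.0.13, ShortRead 1.16.3 and TopHat2 2.0.12 with the mm10 (GRCm38) build. For the counting step, the program, annotation and strand setting are not given in the sources used. The deposited values are raw read counts per gene symbol, in 23725 lines, of which 27 carry a symbol turned into a date. GENCODE M21 matched 98.5% of symbols and gave coordinates on GRCm38.

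All 23 libraries entered 1 edgeR 4.0.16 quasi-likelihood fit of 6 groups (R 4.3.3), after filterByExpr (minimum count 10, minimum total 15) and TMM scaling. Contrasts were ExE minus E in each genotype and the differences between genotypes, with Benjamini-Hochberg adjustment at 0.05 over 13595 genes. Levels are TMM-scaled CPM, log2 levels have a prior count of 2, and edgeR fold changes a prior count of 0.125. Tet1 was also tested with an exact permutation test (scipy 1.17.1). DESeq2 1.42.0, limma 3.58.1 (voom) and the other alternatives are given in the closing section. On simulated counts with 13239 genes tested, the fit of the tissue difference recovered 18.4% of genes changed 2-fold and 46.9% of those changed 4-fold, and 1.6% of called genes were false. The simulation changed 100 genes at each fold and held no other tissue difference and no length and GC slope. These rates therefore need not hold for the data.

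The labels say that same-numbered ExE and E pools share litters, and the pairing rests on them. The deviations of same-numbered pools correlated at 0.15, 0.46 and 0.24 (pools 1, 3 and 4), against -0.34 to 0.11 for other pairs. Both pool 3 libraries have the length and GC slope, so slope and shared litters cannot be told apart in the 0.46. In pairs without pool 3 the values were 0.15 and 0.24 for the same number, against 0.06 to 0.11 for other pairs. Deviations were taken from tissue means that include pool 3, so these values are not free of its slope. Homozygous replicates differed by more than counting noise. The chi-square per degree of freedom was 86.2 to 118 for pairs with pool 3 and 14.3 to 22.7 for the other pairs. The edgeR p-values rest on the spread between pools within the 6 groups of all 23 libraries, not of the 7 homozygous libraries alone. A fit of these 7 alone called 1009 genes, against 2282.

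Gene lists, panel and members were chosen with earlier results of these data known. Genes are named by rule: a panel of 29 genes, the 15 largest called and non-overlapping changes each way at a mean log2 CPM of at least 3, the 4 members of smallest p in each of 35 lists (in the visceral endoderm, decidua and blood lists also the 4 most abundant), and the 5 genes each way of smallest p between genotypes. Counts of near-identical copies (Rhox, ribosomal protein, prolactin and globin genes) and of overlapping or antisense genes are uncertain. Some genes that the rule names are not reported here.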

Additional observations from a re-analysis of the deposited data

Results flagged for a closer look

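Among 186 named genes examined, 18 had a homozygous E pool that stood apart from the other 3, where chance flags about 1 in 20 groups (5%). Of these, 13 were in pool 3, 2 in pool 1, 1 in pool 2 and 2 in pool 4. Pool 3 is also the pool with the slope on transcript length and GC content in both tissues, and the part of that slope was not tested.

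In E pool 3, several genes stood above the other E pools. Rps25 was at 421 CPM against 206 to 227 CPM, Rpl22 at 338 against 201 to 205 CPM, Ldhb at 307 against 211 to 222 CPM and Atp5f1 at 269.6 against 242 to 245 CPM. Ifitm2 was at 192 CPM against 98.2 to 104 CPM, Ifitm3 at 23.3 against 12.3 to 13.6 CPM and Pipox at 37.3 against 26.6 to 27.6 CPM. Rhox2a, at 0.345 CPM, and Fosl1, at 0.173 CPM, were at 0 in the other E pools, which is within counting error.

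Also in E pool 3, Rlim was at 26.1 CPM against 114 to 126 CPM in the others, Suv39h1 at 62.5 against 117 to 120.1 CPM, Atf7ip at 67.4 against 99.8 to 107 CPM and Nid2 at 92.1 against 129 to 132 CPM. In E pool 4, Tdgf1 was at 301 CPM against 218 to 223 CPM and Adar at 68.2 against 56.0 to 57.8 CPM. In E pool 1, Lyz2 (1.23 CPM) and Kdr (0.224 CPM) were at 0 in the others. Ttc18 was at 0.104 CPM in E pool 2 and at 0 in the others.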

How the results depend on the processing

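The 2282 calls between tissues numbered 398 (247 higher, 151 lower) in the test against a 2-fold difference and 1009 (499 higher, 510 lower) in a fit of the 7 homozygous libraries alone, which has fewer samples. Leaving out 1 library gave 1311 to 2736 calls (869 to 1621 higher, 442 to 1115 lower), with the fewest without ExE pool 1, and 0 calls for either difference between genotypes. DESeq2 called 2960 genes, and 3 and 6 for homozygous minus wt and minus heterozygous. RLE factors gave 2242 calls, 1140 higher and 1102 lower. With the replicate block 2840 genes were called, of which 1969 were shared in direction with the 2282 (86.3%), and among the named genes the block ended the calls of 5. Tet1's difference was -1.77 to -1.36 with 1 library left out (exact p = 0.0667 to 0.1). Of 149 named genes called, 60 were called with the same sign under all 19 alternatives. The 7 libraries alone ended 38 of these calls and the test against 2-fold 84. Log2 fold changes that changed sign, none in a called gene, were those of Hba-a2 (-0.02 by limma-voom, -0.51 with the GC and length correction, -1.13 without the 3 slope libraries, -0.04 without E pool 3, -0.80 without ExE pool 3), Bmp2 (0.13 with the block, 0.15 with block and correction), Des (-0.07 without the slope libraries, -0.21 without ExE pool 3), Egfl7 (-0.02 and -0.36 likewise), Dnmt1 (0.02 without E pool 4, 0.10 without ExE pool 3), Plvap (-0.13) and Zfp786 (-0.05) without ExE pool 3 and Lyz2 (-4.40) without ExE pool 4. The cause was not tested. Over all single left-out libraries these ran from -0.80 to 1.12 for Hba-a2, -0.21 to 1.60 for Des, -0.36 to 0.80 for Egfl7, -0.24 to 0.10 for Dnmt1, -0.13 to 1.39 for Plvap, -0.05 to 1.14 for Zfp786 and -4.40 to 6.24 for Lyz2. Depth limits what can be seen of genes near 0.312 to 0.684 CPM, the level of 3 counts.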

Other observations

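Some genes outside the naming rule, chosen after their values were seen, add to the gene groups described. The imprinted growth factor gene Igf2 was at 282, 482 and 218 CPM in ExE pools 1, 3 and 4 and 19.7, 9.27, 46.8 and 5.09 CPM in E pools 1 to 4 (4.02 ± 0.94, edgeR adjusted p = 0.00567), and its neighbour H19, a noncoding RNA gene, at 1202, 1828 and 1109 CPM in ExE and 133, 58.0, 304 and 27.5 CPM in E (3.40 ± 0.93, adjusted p = 0.0154). The retrotransposon-derived placental gene Peg10 was at 139.6, 59.3 and 89.0 CPM in ExE and 10.8, 4.06, 14.0 and 0.679 CPM in E (3.70 ± 0.81). For all 3 genes E pool 3 was the highest E pool and no pools overlapped.

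The only WNT pathway gene of the list called higher was Wnt7b, a ligand gene of trophoblast, at 575, 696 and 427 CPM in ExE and 34.1, 0.104, 95.0 and 4.07 CPM in E (4.10 ± 1.32, adjusted p = 0.0355). The only naive pluripotency gene called lower was Tdh, which encodes the threonine dehydrogenase of mouse pluripotent cells, at 0.270, 5.47 and 4.28 CPM in ExE and 32.7, 29.7, 29.4 and 32.6 CPM in E (-3.25 ± 0.78, adjusted p = 0.00708). The only BMP pathway gene called lower was Id3, at 25.4, 178 and 61.3 CPM in ExE and 262, 292, 445 and 248 CPM in E (-1.83 ± 0.56, adjusted p = 0.0278), while Id2 went the other way.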
